A study of Mus musculus with 6 samples.

Results

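The 45 genes described here are those whose array symbol begins with Psma, Psmb, Psmc, Psmd, Psme or Psmg and a digit, without the immunoproteasome genes Psmb8, Psmb9 and Psmb10. They are 45 of the 18193 genes with a probe set of their own on the array, and each was read by the probe set with its highest mean signal over the 6 arrays. The tissue was cochlear lateral wall, the outer wall of the cochlear duct with its stria vascularis and spiral ligament, dissected from CBA/CaJ mice of both sexes. The young group held 3 samples from adults of 1 to 3 months and the old group held 3 samples from mice of 1.5 years, with no treatment, transgene or other allele named for either. The comparison asked which messenger RNAs differ with age, in a study that also concerned microRNAs. Values are log2 signals of 1-colour Affymetrix arrays. Every difference is the old mean less the young mean, ± after a mean is the SD over 3 arrays, and ± after a difference is its limma standard error. Nothing in the labels tells whether a sample was 1 animal or a pool, so the p-values reflect only how far these 6 samples spread. A lower signal from fewer cells of a type cannot be told apart from less RNA per cell in such whole tissue.

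The proteasome degrades proteins that carry ubiquitin chains. Its 20S core is a barrel of outer alpha rings and inner beta rings, in which the beta subunits Psmb5, Psmb6 and Psmb7 cut peptide bonds. The 19S regulatory particle caps the barrel: ATPases unfold the substrate and feed it in, while non-ATPase subunits bind and remove ubiquitin. Dedicated chaperones build the alpha ring and the ATPase ring and are not kept in the finished particle. Alternative activators can sit on the barrel in place of the 19S particle. By role the genes comprised 8 alpha ring genes, 8 beta ring genes, 6 ATPases, 11 non-ATPase subunits, 3 chaperones of the regulatory particle, 3 activators, 4 chaperones of the core and 2 genes that are named for a proteasome partner but are no subunits. Those are Psmc3ip, a recombination factor of meiosis, and Psme3ip1, a protein that binds the activator Psme3.

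Some facts of the arrays touch the values below. Array medians were 6.26 to 6.30. Xist, which is transcribed from the inactive X of females, was at 6.06 on young array 2 and between 11.95 and 12.65 on the other 5 arrays. The Gapdh signal at the 3′ end exceeded that at the 5′ end by 1.07 to 1.25 on young arrays and by 1.26 to 1.45 on old arrays. The same measure for Actb overlapped, with 1.46 to 1.60 on young and 1.39 to 1.84 on old arrays. All 11 lateral wall markers, such as Kcnj10, Otos and Coch, were measured above the median signal, with array means of 12.55 to 12.71 and 0 called. Of all 18193 genes 4.78% were called, 2.45% higher and 2.33% lower, and the marker counts that follow are read against these shares. Of the markers of other cells, 3 of 10 for macrophages were called higher in old samples, with array means of 8.01 to 8.25 in young and 8.56 to 8.71 in old. Of 9 measured marrow myeloid markers 8 were called lower, with array means of 7.50 to 8.07 in young and 6.33 to 6.98 in old. Of 7 bone cell markers 3 were called lower (8.19 to 8.74 in young, 7.00 to 7.88 in old). Among the bone markers not called, Ibsp and Sost differed by -2.25 and -1.20, Alpl by 0.32 and Sp7 by -0.04. Of 4 proliferation markers 2 were called lower (5.92 to 6.17 in young, 5.34 to 5.48 in old). Of 5 hair cell markers 4 lay below 6.28, the median over all probe sets, and 0 were called. The part of these differences in the proteasome values was not tested.

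The proteasome genes were bright and close to level between the ages. Of 45, 43 had a mean above 6.28, and means ran from 4.45 for Psmb11 to 12.38 for Psma3. By limma with an adjusted p under 0.05, 1 gene rose in old samples, the alpha ring chaperone Psmg2, and 0 fell. That is 2.22% of the proteasome genes, against 4.78% of all 18193 genes called, of which 2.45% were higher and 2.33% lower. At an unadjusted p under 0.05 there were 6 of 45 (13.3%), 4 higher and 2 lower, against 20.7% of all genes. In 8 of 45 genes the 3 old arrays did not overlap the 3 young ones (17.8%), 6 above and 2 below. The share over all genes was 26.7%, with 17% above and 9.7% below. All 3 shares were lower for the proteasome genes than for all genes, with no test of that difference.

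Sizes of the differences showed the same in another form. The median difference was 0.03 over the proteasome genes and 0.03 over all genes. Among genes above the median signal it was 0.02 over 43 proteasome genes and 0.05 over all 11595. Of these, 2.33% and 6.38% were called, 18.6% and 34.6% did not overlap, and 65.1% and 42% were within 0.1 of 0. A difference of at most 0.1 in either direction was found in 28 of 45 (62.2%), against 49% of all genes, and one of at most 0.2 in 37 (82.2%), against 74.7%. The 95% interval of the difference lay within 0.5 on both sides of 0 in 40 genes (88.9%), against 81.4%. The range of a gene over all 6 arrays had a median of 0.29 for the proteasome genes and 0.35 for all genes. It was widest in the alpha subunit Psma2, at 1.20, and narrowest in the core chaperone Psmg4, at 0.07. A p above the threshold does not show that a gene was unchanged, and these intervals give the sizes the 6 arrays allow.

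**Figure D1:**
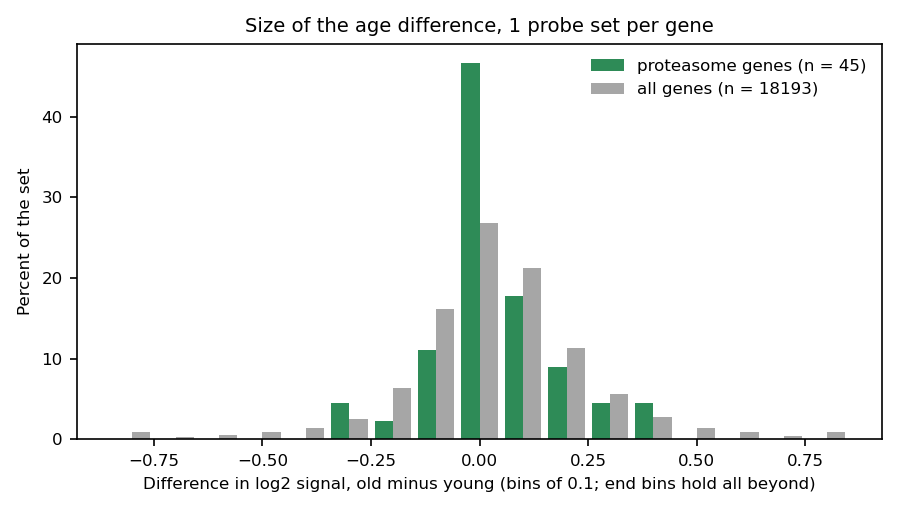
Percent of genes (vertical axis) by difference in log2 signal, old minus young (horizontal axis, bins of 0.1), for the 45 proteasome genes in green and all 18193 genes in grey. The bin at 0 holds 46.7% of the proteasome genes and 26.8% of all genes, and no proteasome gene lies beyond -0.33 or 0.39.

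The roles differed in where their few larger differences lay. The 33 subunits of the 20S and 19S particles had a median difference of 0.01. Of them 31 were within 0.2 of 0 (93.9%, against 74.7% of all genes). In 31 the ages overlapped, so 6.06% did not overlap, against 26.7% of all genes. The 7 assembly chaperones had a median of 0.17 and all 7 differences were above 0. The share of all genes with a difference above 0 was not counted. In 4 of the 7 (57.1%) all old arrays lay above all young ones, against 17% of all genes. All 7 were above the median signal, where the share was larger, with 2644 of 11595 genes. The smallest of the 7 differences, Psmg4 at 0.01 and Psmd9 at 0.04, crossed 0 when single arrays were left out. These are descriptions of groups chosen with earlier results known, and no test was made between them.

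**Figure D2:**
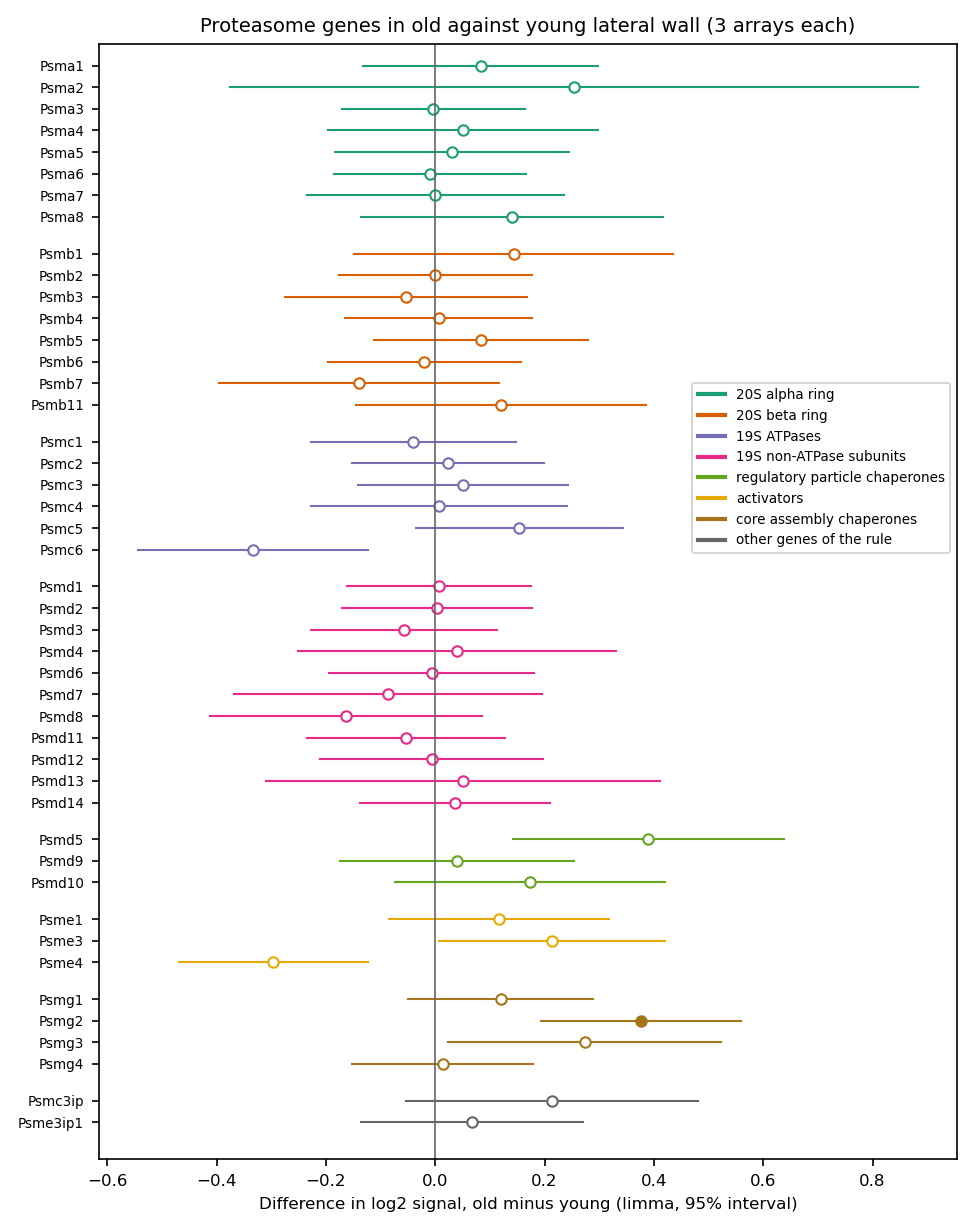
Difference in log2 signal, old minus young (horizontal axis), with the limma 95% interval for each of the 45 genes, coloured by role; the filled point has an adjusted p under 0.05. Psmg2 is the filled point at 0.38, and the intervals of Psmd5, Psmg3 and Psme3 lie above 0 and those of Psmc6 and Psme4 below 0.

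The alpha ring forms the gate of the barrel. Its 8 genes had differences from -0.01 to 0.25 with a median of 0.04, and in all 8 the ages overlapped. Psma3, the brightest of all 45 genes, was at 12.38, 12.43 and 12.34 in young samples and at 12.38 on each old array. Psma6 had the lowest difference of the ring, with 12.14, 12.28 and 12.25 in young and 12.22, 12.20 and 12.22 in old samples. Both genes stayed within 0.14 over all 6 arrays. Psma2 had the highest difference of the ring, with 10.92, 11.34 and 11.08 in young and 12.10, 11.10 and 10.90 in old samples. Old array 1 alone lay above the young arrays, the difference was 0.25 ± 0.28 (95% interval -0.38 to 0.88), and without that array it was -0.11. Psma8, the form of the ring's subunit that replaces Psma7 in testis, was below the median signal, at 5.05 ± 0.25 in young and 5.19 ± 0.03 in old samples. Psma7 itself was at 10.67 in both ages, a difference of 0 with an interval of -0.24 to 0.24.

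The beta ring holds the active sites. Its 8 genes had differences from -0.14 to 0.14 with a median of 0.00, all within 0.2 of 0 and with overlapping ages. Psmb5, the chymotrypsin-like site, was at 11.27, 11.31 and 11.25 in young and 11.49, 11.26 and 11.33 in old samples. Psmb6, the caspase-like site, was at 11.69, 11.79 and 11.75 in young and 11.78, 11.66 and 11.73 in old samples. Psmb7, the trypsin-like site, was at 8.89, 9.23 and 8.83 in young and 8.87, 8.87 and 8.79 in old samples. The differences were 0.08 ± 0.09, -0.02 ± 0.08 and -0.14 ± 0.11, and that of Psmb7, the lowest of the ring, was -0.02 without young array 2. Psmb1, a ring member with no active site, had the highest difference, with 11.46, 11.77 and 11.64 in young and 12.02, 11.65 and 11.63 in old samples. Here too old array 1 alone stood above the young arrays, and the difference without it was 0.02. Psmb4, the brightest of the ring, was at 12.20 in both ages with an interval of -0.16 to 0.18, and Psmb11, the catalytic subunit of thymic epithelium, lay below the median signal at 4.39 ± 0.19 and 4.51 ± 0.13.

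Psmb8, Psmb9 and Psmb10 replace the 3 cutting subunits in the immunoproteasome of immune cells and of cells that respond to interferon. Psmb8 was at 8.06, 8.53 and 7.91 in young and 8.98, 8.60 and 8.66 in old samples, and Psmb9 at 7.66, 7.93 and 7.85 against 8.34, 8.08 and 8.09, so neither overlapped. Psmb10 was at 8.95, 9.22 and 8.95 in young and 9.30, 9.05 and 9.15 in old samples, with overlapping ages and a difference of 0.13 ± 0.11 (limma adjusted p = 0.61). The differences of Psmb8 and Psmb9, 0.58 ± 0.17 and 0.36 ± 0.11, did not pass (limma adjusted p = 0.0933 and 0.104), and that of Psmb8 passed without young array 2, at 0.76 (limma adjusted p = 0.0166), and with array weights, at 0.60 (limma adjusted p = 0.0306). Within each array, the log2 ratio of Psmb8 to Psmb5 was higher in old samples by 0.50, that of Psmb9 to Psmb6 by 0.38 and that of Psmb10 to Psmb7 by 0.27. The last of these joins the 0.13 of Psmb10 with the -0.14 of Psmb7. With the mean over each gene's probe sets the shift of Psmb8 to Psmb5 was 0.28. In all 3 pairs the lowest old ratio exceeded the highest young ratio, with an exact two-sided permutation p of 0.1, the smallest that 3 arrays against 3 can give. These 3 pairs and 2 pairs of chaperones given later were picked after their values were seen. Neither that p nor the p adjusted over the 5 pairs, also 0.1, accounts for this choice, so no conclusion is drawn from them. How often other pairs of genes separate the ages was not counted. Of the 10 macrophage markers, 3 were called higher (Lyz2, Cd68 and Ptprc) and 7 were not called. In 6 of the 10 all old arrays lay above all young ones, against 17% of all genes. In 4 the ages overlapped, and the differences of the 10 ran from -0.08 for Csf1r to 1.56 for Lyz2. The part of macrophages in the ratios was not tested.

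The 6 ATPases form the ring that unfolds substrates. Psmc2, the brightest, was at 11.74, 11.88 and 11.85 in young and 11.83, 11.85 and 11.86 in old samples, a difference of 0.02. Psmc5 had the highest difference, with 10.73, 10.74 and 10.69 in young and 10.89, 10.76 and 10.97 in old samples. The ages did not overlap, by 0.02 between the nearest arrays, and the difference of 0.15 ± 0.08 did not pass (limma adjusted p = 0.375). Psmc6 had the lowest difference of all 45 genes, with 10.72, 10.84 and 10.78 in young and 10.29, 10.50 and 10.55 in old samples. All old arrays lay below all young ones, and the difference of -0.33 ± 0.09 (95% interval -0.54 to -0.12) did not pass (limma adjusted p = 0.0841). It passed with an intensity trend and robust variance (limma adjusted p = 0.0377), and 1 of its 2 other probe sets went the other way, as given below. The remaining ATPases, Psmc1, Psmc3 and Psmc4, had differences between -0.04 and 0.05.

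The 11 non-ATPase subunits had differences from -0.16 to 0.05, a median of -0.01 and overlapping ages in all 11. Psmd11, a subunit of the lid and the brightest, was at 11.67, 11.54 and 11.50 in young and 11.51, 11.50 and 11.54 in old samples. Psmd8, also of the lid, had the lowest difference, with 10.94, 11.21 and 11.13 in young and 11.10, 10.90 and 10.79 in old samples, -0.16 ± 0.11. Psmd13 had the highest, with 7.88, 8.14 and 7.76 in young and 8.29, 7.69 and 7.95 in old samples, 0.05 ± 0.16. In both genes arrays of the ages interleaved. The subunits that act on the ubiquitin chain lay close to 0: the receptor Psmd4 differed by 0.04 ± 0.13, the scaffold and receptor Psmd2 by 0.00 ± 0.08, and the deubiquitinase Psmd14 by 0.04 ± 0.08. Psmd2 was at 11.08, 11.19 and 11.19 in young and 11.16, 11.12 and 11.19 in old samples, so its arrays spanned 0.11.

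Psmg1 and Psmg2 form a pair that scaffolds the alpha ring, and Psmg3 and Psmg4 form another. Psmg2 was at 9.62, 9.75 and 9.60 in young samples and 10.04, 10.08 and 9.98 in old samples. All old arrays lay above all young ones, and the mean rose from 9.66 ± 0.08 to 10.03 ± 0.05, by 0.38 ± 0.08 or 1.30-fold (95% interval 0.19 to 0.56, limma adjusted p = 0.0369). The call ended when any array but young 2 was left out, with differences of 0.35 to 0.40 and adjusted p between 0.092 (without young 1) and 0.127 (without young 3) by limma. It was 0.102 without old 1, 0.123 without old 2 and 0.121 without old 3, while over all genes the calls went from 870 to between 227 and 399 in these 5 settings. The call was kept without young array 2 (limma adjusted p = 0.025). It also ended with the mean of its 3 probe sets, at 0.23 (limma adjusted p = 0.147).

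The partner Psmg1 was at 9.68, 9.67 and 9.59 in young and 9.74, 9.77 and 9.79 in old samples. Its ages did not overlap either, with a difference of 0.12 ± 0.07 (limma adjusted p = 0.45). Psmg3 was at 8.58, 9.0 and 8.77 in young and 9.06, 9.03 and 9.08 in old samples, a difference of 0.27 ± 0.11 (95% interval 0.02 to 0.52, limma adjusted p = 0.215). Young array 2 lay 0.03 below the lowest old array, and without it the difference was 0.38 and passed (limma adjusted p = 0.049). Psmg4 was level at 8.97, 9.02 and 8.99 in young and 9.04, 8.98 and 9.0 in old samples. Within each array, the ratio of Psmg2 to Psmg1 was higher in old samples by 0.26 and that of Psmg3 to Psmg4 by 0.26. The ages did not overlap in either ratio, each with an exact permutation p of 0.1. Both pairs were picked after their values were seen, which that p does not account for. With the mean of all probe sets of each gene the shift of Psmg2 to Psmg1 was 0.11.

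**Figure D3:**
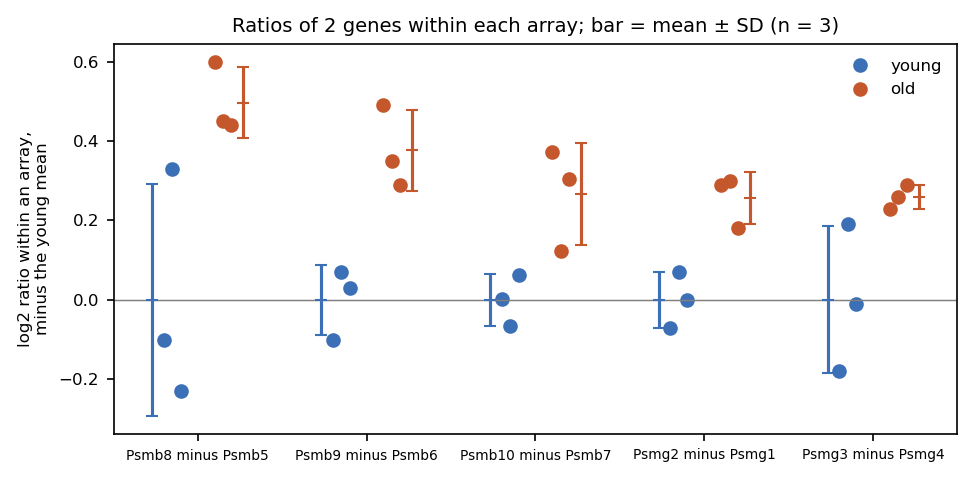
Log2 ratio of a pair of genes within each array, less the mean of the 3 young arrays (vertical axis), for 5 pairs; blue points are young arrays, red points old arrays, and bars are mean ± SD. In all 5 pairs every old array lies above every young array, with mean shifts from 0.26 to 0.50. The pairs were picked after their values were seen.

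Psmd5, Psmd9 and Psmd10 hold ATPases during assembly of the regulatory particle. Psmd5 had the highest difference of all 45 genes, with 8.38, 8.69 and 8.44 in young and 9.04, 8.81 and 8.83 in old samples. The ages did not overlap, and the difference of 0.39 ± 0.11 (95% interval 0.14 to 0.64) did not pass (limma adjusted p = 0.0845). It passed without young array 2, at 0.48 (limma adjusted p = 0.0312), and with array weights, at 0.37 (limma adjusted p = 0.0382). Psmd10, also known as gankyrin, was at 8.70, 9.07 and 8.77 in young and 9.09, 9.01 and 8.96 in old samples. Its young array 2 lay among the old ones, and the difference was 0.17 ± 0.11. Psmd9 was at 8.50, 8.73 and 8.56 against 8.70, 8.52 and 8.69, a difference of 0.04 ± 0.09 with interleaved arrays.

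The activators went in both directions. Psme4, known as PA200, caps the barrel mainly in the nucleus and favours degradation that needs no ubiquitin. It was at 11.21, 11.14 and 11.15 in young and 10.93, 10.82 and 10.86 in old samples. All old arrays lay below all young ones by at least 0.21, and the difference was -0.30 ± 0.08 (95% interval -0.47 to -0.12, limma adjusted p = 0.0652). Psme3, a nuclear activator, was at 8.12, 8.30 and 8.09 in young and 8.46, 8.29 and 8.40 in old samples, 0.21 ± 0.09 (limma adjusted p = 0.243). Young array 2 and old array 2 were 0.01 apart in the order that makes the ages overlap. Psme1, the alpha chain of an activator that interferon induces, was the brightest of the 3 at 11.34 ± 0.12 and 11.45 ± 0.06. Its partner Psme2 shares its probe set with Psme2b and is not counted among the 45; that probe set was at 10.33, 10.69 and 10.52 in young and 11.13, 10.45 and 10.39 in old samples. Of the genes that are no subunits, Psmc3ip was at 6.65, 7.03 and 7.02 in young and 7.06, 7.06 and 7.22 in old samples, 0.21 ± 0.12, and Psme3ip1 differed by 0.07 ± 0.09.

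Psme4 stayed just outside the threshold in the main test and passed in 5 of the alternatives. These were cyclic loess (limma adjusted p = 0.0495), a test of bright probe sets alone (0.0373), a trended, robust variance (0.0198), weighted arrays (0.0277) and the mean of its probe sets (0.0317). The difference was -0.30 to -0.32 in these 5 settings. With single arrays left out it was -0.33 to -0.27 and did not pass, with adjusted p of 0.0706 to 0.231.

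**Figure D4:**
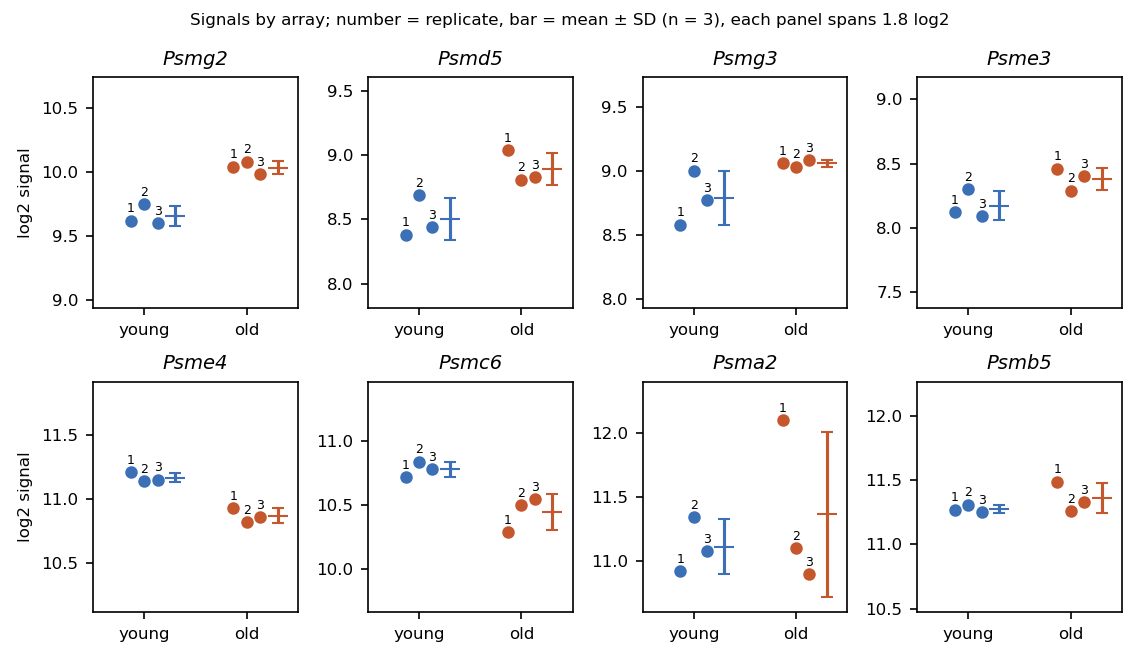
Log2 signal (vertical axis, each panel spanning 1.8) on each of the 6 arrays for 8 proteasome genes; numbers are replicates and bars are mean ± SD of 3 arrays. Psmg2, Psmd5 and Psmg3 lie higher and Psme4 and Psmc6 lower on all old arrays, and in Psma2 old array 1 alone stands at 12.10.

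Young array 2, the one with low Xist, tended to the high side in these genes. The median deviation of the 45 genes from their own mean was -0.07, 0.08 and -0.05 on the young arrays and 0.06, -0.03 and 0.00 on the old arrays. Of the 45 genes, 16 were highest on young array 2 and 16 on old array 1, and 18 were lowest on young array 1. Over genes above the median signal the median deviations were -0.06, 0.01 and -0.02 on the young arrays and 0.03, 0.02 and 0.03 on the old arrays. Over all genes they lay between -0.02 and 0.03, and how the arrays were scaled to each other is not given. Without young array 2, 3 of the 45 proteasome genes were called higher (Psmg2, Psmd5 and Psmg3) and 0 lower. Over all 18193 genes the calls in either direction went from 870 to 1520 in that setting. Calls were thus gained over all genes too, and the added proteasome calls are not read as a trait of these genes. The part of the Xist difference in these calls was not tested.

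A transcript is often read by several probe sets, which bind different stretches of it. The 45 genes had 95 probe sets, of which 2 were called higher and 2 lower (4.21%), against 4.71% of all 45037 probe sets. Of the 25 genes with more than 1 probe set, 5 held probe sets of opposite sign that were over 0.3 apart: Psma1, Psmc6, Psmd7, Psmd11 and Psmg2. How many of the 9010 array genes with more than 1 probe set do so was not counted. The brightest probe set of Psma1 differed by 0.08. Its dimmest, with a mean of 5.91 below the median signal, fell by 0.75 (limma adjusted p = 0.0204). That one was at 6.03, 6.54 and 6.28 in young and 5.39, 5.65 and 5.56 in old samples. The other 2 differed by -0.10 and -0.52, so 3 of its 4 probe sets were lower in old samples, and the mean over them differed by -0.32 (limma adjusted p = 0.0889). The brightest of Psmd7, the partner of the deubiquitinase, differed by -0.09, while a dimmer one was at 7.44, 7.29 and 7.29 in young and 7.64, 7.80 and 7.75 in old samples and rose by 0.39 (limma adjusted p = 0.0394). For these 2 genes the probe set chosen decides whether the gene is called, and the same holds for Psmg2 and Psme4, as given below.

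For Psmc6 the other 2 probe sets differed by 0.17 and -0.27, so the lower level in old samples was seen in 2 of 3. Psmd11, with 8 probe sets, ranged from -0.17 to 0.21, and the upper end belonged to a probe set at 4.04, below the median signal. For Psmg2 a second probe set was at 9.02, 9.20 and 9.02 in young and 9.51, 9.32 and 9.33 in old samples, 0.31 ± 0.09 (limma adjusted p = 0.105). The third, below the median signal, differed by -0.01. For Psme4 all 6 probe sets were lower in old samples, by -0.13 to -0.69. The dimmest of them, also below the median signal, fell by 0.69 (limma adjusted p = 0.0377). It was at 5.29, 4.94 and 5.41 in young and 4.38, 4.78 and 4.41 in old samples.

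**Figure D5:**
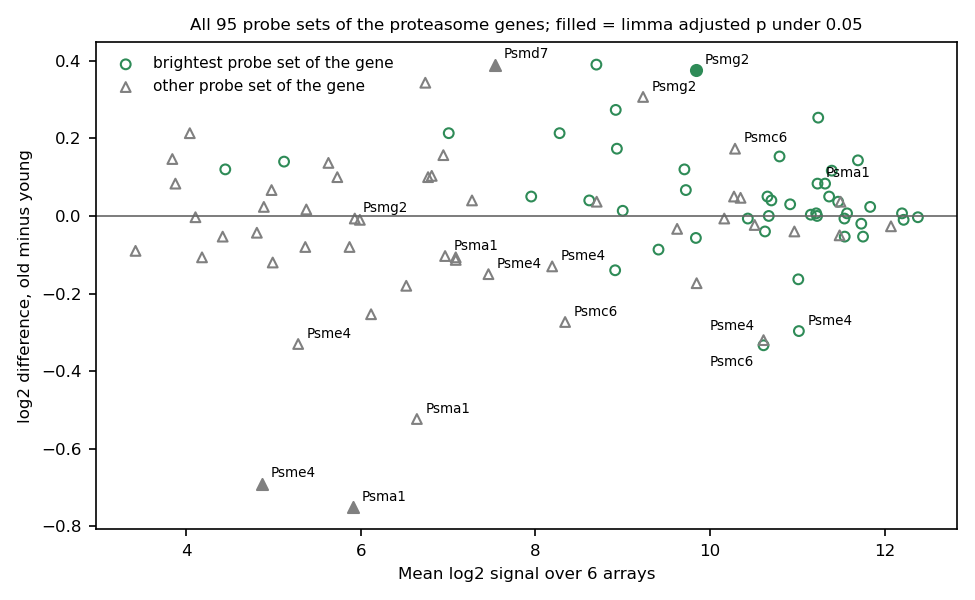
Difference in log2 signal, old minus young (vertical axis), against mean log2 signal over 6 arrays (horizontal axis) for all 95 probe sets of the 45 genes; circles are the brightest probe set of a gene, triangles the others, and filled marks have an adjusted p under 0.05. The 4 filled marks are Psmg2 and a dimmer probe set of Psmd7 above 0 and dimmer probe sets of Psma1 and Psme4 below 0.

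Promoters are shown because the proteasome genes are known to be driven together by shared factors. Windows of 300 bases, 250 before and 50 after the start, came from RefSeq on build GRCm38.p6 and were found for 37 of the 45 genes. They were searched on both strands for 9 motifs, and 14453 array genes with such windows gave the background; a gene counts if any of its windows holds the motif. The core CCGGAAG, which ETS factors bind, was in 16 of 37 windows (43.2%), against 15% of all. Windows of 6 of these genes follow, from the alpha ring, the ATPases, the non-ATPase subunits and the chaperones, with the match or its reverse complement in capitals; positions are those of its first base, and the base before the start is -1.

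Psma6 (chr12:55398813-55398839, plus strand, match at -2): cgccggtgctCCGGAAGcagtagccat
Psmc1 (chr12:100110164-100110190, plus strand, match at -28): ggtggatgcaCTTCCGGcggtggcgat
Psmd2 (chr16:20651616-20651642, plus strand, match at -26): ccgcagggcgCTTCCGGtctggaggac
Psmd11 (chr11:80428594-80428620, plus strand, match at -11): gagggcgggtCTTCCGGgtgtgtgttt
Psmd13 (chr7:140882378-140882404, plus strand, match at -6): gcccgcggtgCCGGAAGtgagcgagca
Psmg1 (chr16:95991013-95991039, minus strand, match at -69): tcgcggcggaCCGGAAGctcttaggtt

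The antioxidant response core TGACNNNGC, bound by Nfe2l1 and Nfe2l2, was in 6 of 37 windows (16.2%), against 16.1%. These are 4 of the 6, shown because they include both cutting subunits that hold it and the activator Psme4.

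Psmb5 (chr14:54618024-54618052, minus strand, match at -47): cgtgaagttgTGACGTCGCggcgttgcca
Psmb6 (chr11:70525338-70525366, plus strand, match at -9): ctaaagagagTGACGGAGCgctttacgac
Psmd9 (chr5:123228149-123228177, plus strand, match at -31): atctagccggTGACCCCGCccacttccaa
Psme4 (chr11:30771758-30771786, plus strand, match at -7): cgctgcggctGCAGCGTCAccagaagagc

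Of the other motifs, the palindrome of nuclear respiratory factor 1 was in 7 of 37 (18.9%), against 8.61% of all genes. The CCAAT box bound by Nfya was in 15 of 37 (40.5%), against 42%, and the GC box GGGCGG in 22 (59.5%), against 57.3%. TATAAA was in 3 (8.11%), against 11.5%. The full TGACTCAGC, which is 1 form of TGACNNNGC, was in 0 (0.519% of all), and the cAMP element TGACGTCA was in 0 (2.92% of all). The YY1 core was in 1 (2.7%), against 2.62%. Base composition was not matched and a match is no evidence of binding.

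Psmc6 and Psme4, the genes whose old arrays all lay below the young ones, held both CCGGAAG and TGACNNNGC in their windows. So did Psmd12, whose difference was -0.01 with overlapping ages. How many of all genes hold both motifs was not counted, and a link between the motifs and the direction was not tested. The 250 bases before each start are given with complete matches to these in capitals; the second match of Psme4 runs over the start and is seen in its window above.

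Psmc6 (chr14:45329574-45329823, plus strand): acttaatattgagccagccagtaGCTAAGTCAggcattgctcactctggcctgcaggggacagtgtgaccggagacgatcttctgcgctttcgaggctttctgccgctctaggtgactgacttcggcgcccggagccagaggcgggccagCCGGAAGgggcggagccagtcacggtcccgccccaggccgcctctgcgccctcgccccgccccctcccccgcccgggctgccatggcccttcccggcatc
Psme4 (chr11:30771525-30771774, plus strand): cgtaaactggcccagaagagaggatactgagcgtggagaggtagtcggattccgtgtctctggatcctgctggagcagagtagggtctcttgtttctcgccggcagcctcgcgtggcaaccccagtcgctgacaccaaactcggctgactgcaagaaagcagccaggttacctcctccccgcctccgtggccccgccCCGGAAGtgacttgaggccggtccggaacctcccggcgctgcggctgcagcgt

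Nfe2l1 is the main factor that raises proteasome transcription when proteasome activity is low, with Nfe2l2, Nfe2l3, their small Maf partners and Nfya among the other regulators. Of 13 such genes measured, 2 rose and 2 fell (30.8%), against 4.78% of all genes; the list was chosen with earlier results known, and no test was made of that share. Nfe2l1 was level, with 11.13, 10.99 and 11.06 in young and 11.08, 11.05 and 11.11 in old samples (0.02 ± 0.08). Nfe2l3 was at 5.99, 6.43 and 6.15 in young and 7.09, 7.54 and 7.10 in old samples and rose by 1.05 ± 0.15 (limma adjusted p = 0.00942), or 0.0541 without young array 3. Its other 2 probe sets, both below the median signal, differed by 0.22 and 0.08. Nfya was at 7.48, 8.06 and 7.51 in young and 8.36, 8.45 and 8.47 in old samples and rose by 0.74 ± 0.15 (limma adjusted p = 0.0303). The other 2 probe sets of Nfya, also below the median signal, differed by 0.01 and 0.15. On the brightest probe set of Nfe2l3 and of Nfya, all old arrays lay above all young ones.

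Nfya lost its call without any array but young 2, with limma adjusted p from 0.0746 (without old 1) to 0.122 (without young 3). Maff, a small Maf protein, was at 9.76, 9.07 and 8.81 in young and 6.90, 6.30 and 6.63 in old samples and fell by 2.60 ± 0.24 (limma adjusted p = 0.00194). Mafk was at 10.07, 9.55 and 9.84 in young and 9.0, 9.16 and 9.12 in old samples and fell by 0.73 ± 0.13 (limma adjusted p = 0.0202). Its call ended without young array 3 (0.0882), old array 1 (0.069) or old array 3 (0.0802). The 2 probe sets of Nfe2l2 went opposite ways: the brighter differed by 0.55 ± 0.16 (limma adjusted p = 0.097) and the dimmer fell by 1.30 (limma adjusted p = 0.00282). No direction is given for Nfe2l2. Of 9 measured Nfe2l2 target genes 0 were called and 2 had an unadjusted p under 0.05, and the one with the smallest p, the cystine carrier Slc7a11, differed by 0.33 ± 0.12.

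The other genes of the ubiquitin system are read against the 4.78% of all genes called and the 20.7% with an unadjusted p under 0.05. Of 11 further subunits and regulators 0 were called by limma and 2 had an unadjusted p under 0.05, with a median of 0.13. The smallest p belonged to Akirin2, which carries proteasomes into the nucleus, at 11.18, 11.56 and 11.18 in young and 11.69, 11.69 and 11.68 in old samples. Its difference was 0.38 ± 0.11 (limma adjusted p = 0.0991), and it passed without young array 2, at 0.51 (limma adjusted p = 0.0121), with array weights (0.0264) and with a trended, robust variance (0.0432). Of 28 ubiquitin activating and conjugating genes, 6 had an unadjusted p under 0.05 (21.4%) and 1 rose (3.57%). It was the activating enzyme Uba6, at 9.28, 9.61 and 9.13 in young and 9.86, 9.91 and 9.84 in old samples, a rise of 0.53 ± 0.12 (limma adjusted p = 0.046). The call of Uba6 ended with the mean of its 5 probe sets (0.23, limma adjusted p = 0.255) and without any array but young 2 (limma adjusted p of 0.116 without old 1 to 0.144 without old 3).

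The remaining lists held no call by limma. Of 12 ubiquitin shuttles and Vcp cofactors 0 were called and 0 had an unadjusted p under 0.05, and the smallest p was that of Ubqln4, with a difference of 0.17 ± 0.08. Of 14 ubiquitin ligases of muscle wasting and stress 0 were called and 2 had an unadjusted p under 0.05, led by Rbx1 at -0.32 ± 0.11. Of 22 autophagy genes, the other main route of protein breakdown, 0 were called and 4 had an unadjusted p under 0.05. Atg5, needed to form autophagosomes, had the smallest p of these, with 9.41, 9.67 and 9.35 in young and 9.79, 9.78 and 9.84 in old samples. It differed by 0.33 ± 0.10 (limma adjusted p = 0.105) and passed without young array 2, at 0.42 (limma adjusted p = 0.024), and with array weights, at 0.38 (limma adjusted p = 0.0275). The medians of these 3 lists were 0.04, 0.00 and 0.06.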

How the data were processed

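RNA of cochlear lateral wall was labelled with a 3′ IVT kit, which reads mainly 3′ ends, and 1 sample was hybridised per array, per the labels' protocols. The submitters' processing notes list RMA, MAS5 and Affymetrix Expression Console; which made the table, and in which version, is not given in the sources used here. The table the authors deposited holds log2 values of 45101 probe sets. Array medians lie between 6.26 and 6.30, and any scaling of arrays to one distribution would remove a shift shared by most genes. Scanner files were not used here, so neither scan batches nor signal over background could be looked at. With 3 arrays per age, their number sets the precision.

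The 64 control probe sets were left out, and no other filter was applied. Genes were named from GEO's platform annotation, in which 34945 probe sets had 1 symbol, 932 several and 9160 were not listed. The remaining 45037 probe sets were tested across all genes by lmFit and eBayes of limma 3.58.1 (R 4.3.3), with age alone in the model, with Benjamini-Hochberg adjustment over all of them. A printed adjusted p is that of the gene's brightest probe set. The script was tested on simulated data. Figures were drawn with matplotlib 3.10.9.

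The members and lists were chosen with earlier results of these data known. Named genes are the called ones, the highest, lowest and brightest of each role, genes whose probe sets disagree, and the called genes or the smallest p of each list; a gene named beyond these was picked with its values known. The 4 ubiquitin genes had no probe set with 1 symbol. The alternatives were 3 normalizations, leaving out each array, a replicate block, weighted arrays, a trended and robust variance, bright probe sets alone, the mean over a gene's probe sets, adjustment over genes and an adjusted p of 0.01. Same-numbered arrays of the ages correlated in their deviations by 0.14, 0.08 and 0.01, so the numbers were not taken as pairs.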

Additional observations from a re-analysis of the deposited data

How the results depend on the processing

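The count of proteasome genes called higher, 1, was 2 with array weights, and 0 with the replicate block, with the mean over a gene's probe sets and with an adjusted p of 0.01. Leaving out single arrays gave 0 to 3. The count called lower, 0, was 1 with cyclic loess, 1 with bright probe sets alone, 1 with array weights, 1 with the mean of all probe sets and 2 with an intensity trend and robust variance; leaving out single arrays gave 0 to 0. Over all genes the calls went from 870 to between 227 and 1520 with single arrays left out. Totals over all genes in the other settings are not given here. The changed counts are therefore not read as a trait of the proteasome genes. The median difference, 0.03, was -0.00 to 0.06 with single arrays left out. The replicate numbers are shared by both ages without a stated pairing. With the replicate block, Psmg2 had a limma adjusted p of 0.0514, and of the arrays young 1 and young 2, but not young 3, correlated best with their own number. Nfe2l2 reversed, to -0.38, with the mean of its probe sets, which go opposite ways. The ratio of Psmb8 to Psmb5 was 0.28 and that of Psmg2 to Psmg1 0.11 with that mean. For the other changes the cause was not tested. Quantile normalization, median centring and adjustment over genes changed none of these calls.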
